A study of Caenorhabditis elegans with 2 samples.

Results

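The basement membrane is the thin sheet of extracellular matrix that the anchor cell of the *C. elegans* gonad breaches when it invades the vulval epithelium. It is built from a polymer of laminin and a network of type IV collagen, which nidogen, perlecan and other matrix proteins join to each other and to cells. The 10 genes described here encode its main components: *emb-9* and *let-2* (type IV collagen chains), *lam-1* (laminin β), *lam-2* (laminin γ), *epi-1* and *lam-3* (the laminin α chains), *nid-1* (nidogen), *unc-52* (perlecan), *him-4* (hemicentin) and *fbl-1* (fibulin). In worms, much of this matrix is secreted by body wall muscle and gonad cells. They were chosen by name, 10 of the 46926 genes annotated in Ensembl release 115, and all 10 were found among its 19985 protein-coding genes.

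Binding of EGL-43, a zinc finger transcription factor related to mammalian EVI1, was profiled by ChIP-seq in whole L3 larvae grown for 27 h at 25°C. The larvae were of an *egl-43::gfp* strain in a background labelled wild-type. In *egl-43::gfp*, *gfp* is joined to the 3′ end of the endogenous gene and so marks both isoforms. The paper lists this allele as *zh136*, but its ChIP-seq methods do not name the strain or any other transgene in it. A listed strain with *zh136* also carries *lam-1::gfp*, and whether that strain was used is not given. Chromatin was precipitated with the anti-GFP antibody ab290. There were 2 biological replicates of this 1 condition, from separately grown populations, and no control library was used here. Because chromatin came from whole animals, binding in few cells and weak binding in many cells cannot be told apart, nor can the anchor cell be separated from other cells.

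The list of replicate 1 held 8394 peaks and that of replicate 2 held 10925. The fold enrichment, which is the signal at the summit over the background that the peak caller estimated, ran from 1.73 to 19.8 in replicate 1 and from 1.67 to 19.04 in replicate 2. Overlapping peaks were merged, and the 7259 regions with a peak of each replicate were called shared. On the log2 scale, replicate 2 exceeded replicate 1 by 0.13 in the median region, the SD of this difference was 0.31, and its middle 95% ran from -0.49 to 0.75. This spread is the only replicate error in the lists, and sequencing depth is unknown. For each gene, the span searched was the body and the 5000 bp upstream of its start.

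Shared regions lay in the spans of only 3 of the 10 genes, *let-2*, *unc-52* and *him-4*, with 6 regions in all, of which 4 were at *him-4*. Among all protein-coding genes, 34.4% had a shared region in the same kind of span, so the 3 of 10 was close to this background. That share covers genes of all lengths, and in the length classes that hold the 10 genes it was higher, from 50.3% to 70.3%. Peaks of either list were found at 6 of the 10 genes, beside 45.0% of all protein-coding genes. The remaining 4 genes, *emb-9*, *epi-1*, *nid-1* and *fbl-1*, had no peak of either replicate.

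The sequences under the main peaks are shown first, so that the values can be read beside them. The shared regions at *let-2* (chrX:16392188-16392418) and *unc-52* (chrII:14684458-14684752) are short enough to be given whole, from RefSeq's WBcel235 assembly and in the orientation of the gene, 5′ to 3′. Capitals mark words discussed below, the AP-1 site TGACTCA on either strand and, at *let-2*, the overlapping word AGATGAG.
let-2: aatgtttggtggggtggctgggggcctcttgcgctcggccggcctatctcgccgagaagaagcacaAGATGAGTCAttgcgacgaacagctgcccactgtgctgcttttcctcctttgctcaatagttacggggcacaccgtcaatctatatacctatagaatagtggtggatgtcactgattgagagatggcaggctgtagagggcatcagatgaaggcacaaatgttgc
unc-52: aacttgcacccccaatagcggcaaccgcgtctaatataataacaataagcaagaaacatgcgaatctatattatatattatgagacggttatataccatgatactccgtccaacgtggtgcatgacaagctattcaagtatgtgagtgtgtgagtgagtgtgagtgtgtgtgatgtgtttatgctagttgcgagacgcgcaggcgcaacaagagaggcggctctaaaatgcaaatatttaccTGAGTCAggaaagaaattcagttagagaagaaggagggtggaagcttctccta

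For *him-4*, windows of 101 bp centred on the summit are given. The replicates put the summit of its strongest region at different places, so both windows are shown, chrX:9737643-9737743 for replicate 1 and chrX:9737962-9738062 for replicate 2, with the 11 bases around the summit in capitals. The window in intron 39 (chrX:9743658-9743758) lies mostly between a pair of tRNA genes and has the bases from one replicate's summit to the other's in capitals. That of *lam-2*, at 1 list only (chrX:7152152-7152252), is added as the highest peak without a partner, again with 11 bases in capitals.
him-4, replicate 1 summit: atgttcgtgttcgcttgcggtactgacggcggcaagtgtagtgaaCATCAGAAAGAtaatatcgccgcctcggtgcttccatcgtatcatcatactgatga
him-4, replicate 2 summit: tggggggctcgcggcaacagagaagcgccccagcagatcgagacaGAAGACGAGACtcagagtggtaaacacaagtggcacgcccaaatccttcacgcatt
him-4, intron 39: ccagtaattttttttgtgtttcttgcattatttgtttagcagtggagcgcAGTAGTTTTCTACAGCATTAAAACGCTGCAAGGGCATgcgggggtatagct
lam-2, replicate 2 only: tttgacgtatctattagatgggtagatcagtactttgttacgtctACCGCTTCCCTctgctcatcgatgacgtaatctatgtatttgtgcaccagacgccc

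**Figure D1:**
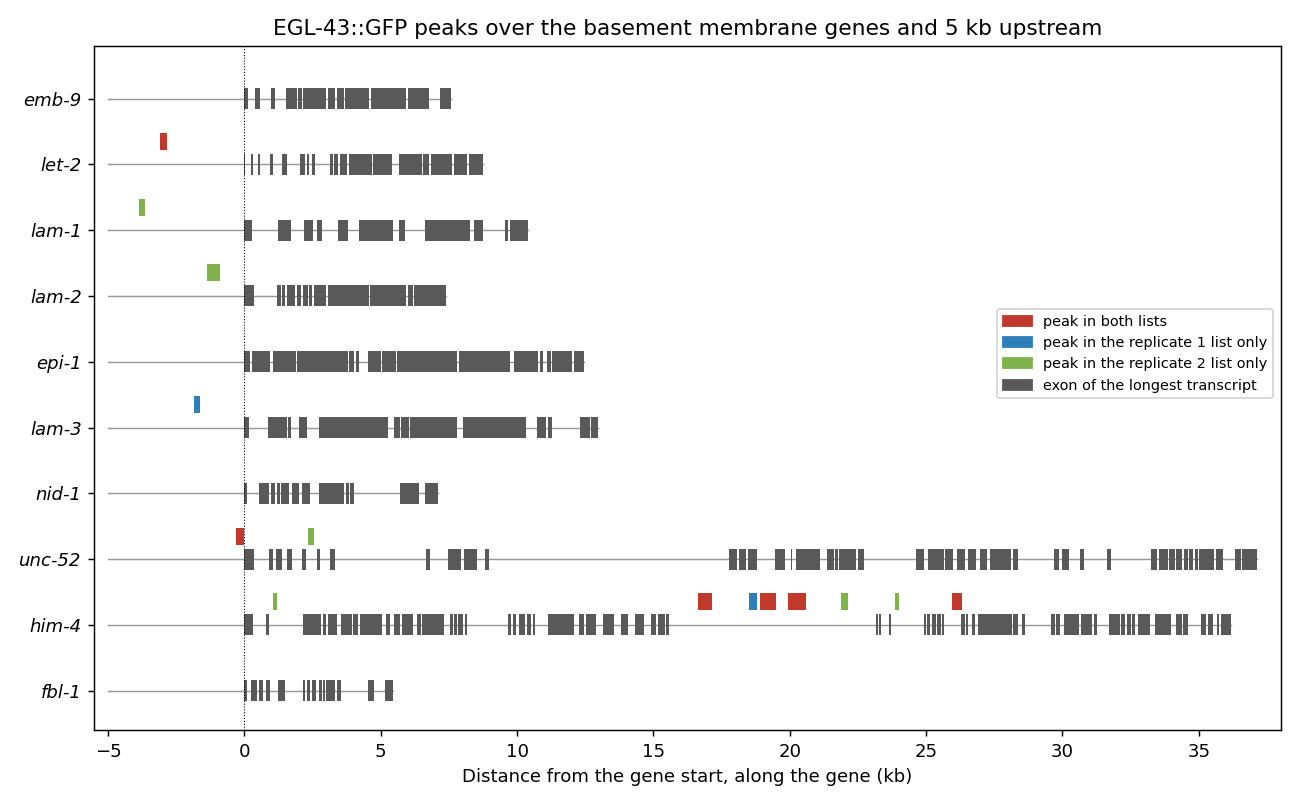
Peaks over the 10 genes, drawn to scale along each gene from 5 kb upstream of its start (kb on the horizontal axis), with the exons of the longest transcript in grey and peaks above them, coloured by the list or lists that hold them. Shared regions are seen at *let-2*, *unc-52* and *him-4* only, and 4 of the 10 genes have no peak.

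Of the type IV collagen genes, *let-2* had a shared region and *emb-9* had no peak. Both chains are needed for the trimer, and *let-2* lies on the minus strand of chromosome X from 16380597 to 16389340. Its region was upstream of the gene, with the summit 2953 bp before the start in replicate 1 and 2941 bp in replicate 2. Enrichment at the summit was 3.40-fold and 4.05-fold in replicates 1 and 2, with −log10 q of 9.001 and 14.01. The log2 difference of 0.25 between replicates fell inside the middle 95% of shared regions. No other protein-coding gene had its start closer to the summit, while 2 annotated noncoding RNA genes, *F01G12.9* and *F01G12.13*, touched the region. By the lower of its replicate values, it ranked 4361 of 7259, below the median of 3.69 for all shared regions.

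*emb-9* (chromosome III, 9336881 to 9344447, minus strand) was free of peaks over its 7567 bp and the 5000 bp upstream. The closest shared region had its summit 9714 bp upstream, inside the body of *chtb-1*, where replicate 1 gave 5.31-fold and replicate 2 gave 2.70-fold. The log2 ratio of these values, -0.98, lay outside the 95% range of the shared regions. Only *let-2* of the pair thus had a shared region, and the difference between the genes was not tested.

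None of the 4 laminin genes had a shared region. At *lam-2* (chromosome X, 7143846 to 7151239, minus strand), which encodes the only γ chain, replicate 2 listed a peak from 7152114 to 7152622 whose summit lay 963 bp upstream at 4.05-fold enrichment. This was the same value as replicate 2 gave to *let-2* and *unc-52*, since fold enrichments in this list commonly rise in steps of 0.0844, and −log10 q was again 14.01. Replicate 1 had no peak there, and its list gives no value where no peak was called, so its enrichment at this place is unknown. Peaks found in the replicate 2 list alone had a median fold enrichment of 2.95 across the genome, so the *lam-2* peak was above the middle of that class.

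At *lam-1* (chromosome IV, 5173332 to 5183746, plus strand), the gene of the β chain, replicate 2 alone listed a peak at 3.21-fold, 3784 bp before the start. The start of *ptp-5.1*, at 3218 bp, was closer to that summit than the start of *lam-1*. At *lam-3* (chromosome I, 10608466 to 10621435, plus strand), an α chain gene, replicate 1 alone listed a peak 1726 bp upstream at 2.53, with −log10 q of 4.05. The *lam-1* peak was above the median of 2.95 for peaks of replicate 2 alone, the *lam-3* peak was below the median of 2.87 for those of replicate 1 alone, and neither fell in the body of the laminin gene. The other α chain gene, *epi-1* (chromosome IV, 10666823 to 10679291, plus strand), had no peak in its 12469 bp or upstream of it. Its nearest shared region lay 1662 bp beyond the 3′ end, at 2.44 in replicate 1 and 3.63 in replicate 2, closer to the start of *K08C7.4*. For *lam-1*, *lam-2* and *lam-3* the nearest shared summit was 17572, 14231 and 15321 bp from the gene body.

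The genes of nidogen and fibulin had no shared region either. *nid-1* (chromosome V, 12910107 to 12917221, plus strand), whose product binds laminin and collagen, had no peak, and the nearest shared summit was 7326 bp upstream (2.53-fold and 3.46-fold). *fbl-1* (chromosome IV, 9540806 to 9546252, plus strand), the shortest of the genes at 5447 bp, had none either, and the nearest was 25881 bp downstream. Over the 10 genes, the median distance from the body to the nearest shared summit was 8520 bp, and over all protein-coding genes it was 6105 bp.

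*unc-52* was the only one of the 10 genes with a shared region at its start. The gene, which encodes the heparan sulphate proteoglycan perlecan and is known for its role in anchoring muscle, occupies 37136 bp of the minus strand of chromosome II (14647321 to 14684456). The region began 2 bp upstream of the annotated start, and its summits were 88 bp upstream in replicate 1 and 100 bp upstream in replicate 2. Replicate 1 gave 3.66-fold and replicate 2 gave 4.05-fold enrichment, and −log10 q was 10.7 and 14.01. The log2 difference was 0.15, close to the median of all shared regions, and the rank was 3683 of 7259. A shared region with its stronger summit within 500 bp upstream of the start was thus found at 1 of the 10 genes, beside 10.2% of all protein-coding genes.

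The start with the peak served few of the annotated *unc-52* transcripts. Only 2 of 17 began in the first 160 bp of the gene, whereas 12 began between 17513 and 17604 bp further along, and no peak of either list lay within 2000 bp of those starts. Inside the gene, replicate 2 alone listed a peak in intron 5 (14681906 to 14682104) with a fold enrichment of 2.70, the lowest of its peaks at *unc-52*. Exons and introns are numbered here in the longest transcript.

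*him-4* had more peaks than the other 9 genes together. It encodes hemicentin, a very large protein of immunoglobulin repeats that the anchor cell itself deposits and that joins adjacent basement membranes, and it spans 36200 bp of the plus strand of chromosome X (9717565 to 9753764). It held 4 shared regions and 4 regions with a peak of 1 list. Having 4 or more shared regions was seen in 2.58% of all protein-coding genes, but in 36.4% of the 55 protein-coding genes on chromosome X with a span of at least 20 kb.

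All 4 shared regions had intronic summits and lay far from the start of *him-4*. It was the only one of the 10 genes with a shared region in its body, beside 12.1% of all protein-coding genes, whatever their length. The strongest, from 9737491 to 9738169, reached 6.36-fold and 7.51-fold in replicates 1 and 2, with −log10 q of 33.1 and 46.1. It ranked 1075 of 7259, within the highest 14.8%. The summits, 20128 and 20447 bp from the *him-4* start, were 319 bp apart, and the start of another gene lay between them. This gene, *F15G9.5*, is on the opposite strand from 9732232 to 9737888, and its start lies within intron 31 of *him-4*. With its 7558 bp, intron 31 is the longest intron of *him-4*, while the next has 1496 bp and the median intron 86 bp.

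Another pair of shared regions lay in the same intron, inside the body of *F15G9.5*. The one from 9734217 to 9734717 had values of 3.05 and 4.89 in replicates 1 and 2, and that from 9736488 to 9737052 reached 2.61 and 3.97. Replicate 2 was higher in both, by 0.68 and 0.60 on the log2 scale, near the upper end of the 95% range. They ranked 5332 and 6710, so only the region at the start of *F15G9.5* stood out from the bulk of shared regions. Between this pair, replicate 1 alone listed a peak from 9736084 to 9736356 at 2.35-fold. Replicate 2 alone listed another in intron 31, from 9739440 to 9739686 at 3.38-fold, and one in intron 34, from 9741433 to 9741586 at 3.29-fold.

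The fourth shared region, from 9743516 to 9743872 in intron 39, covered a pair of tRNA genes at 9743589 to 9743660 and 9743747 to 9743818. Its fold enrichment was 3.40 and 4.57, with summits 36 bp apart and a rank of 4280. It was also the only one to touch an exon of *him-4*, by 21 bp. Shared regions touched 141 of the 612 nuclear tRNA genes (23.04%). Closest to the *him-4* start was a peak of replicate 2 alone in intron 2 (9718620 to 9718769), 308 bp from the start of a shorter transcript, with a fold enrichment of 2.62. No peak lay in the 5000 bp upstream of the gene. Since *F15G9.5* and the tRNA genes share this sequence with *him-4*, the peaks cannot be told apart by gene.

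**Figure D2:**
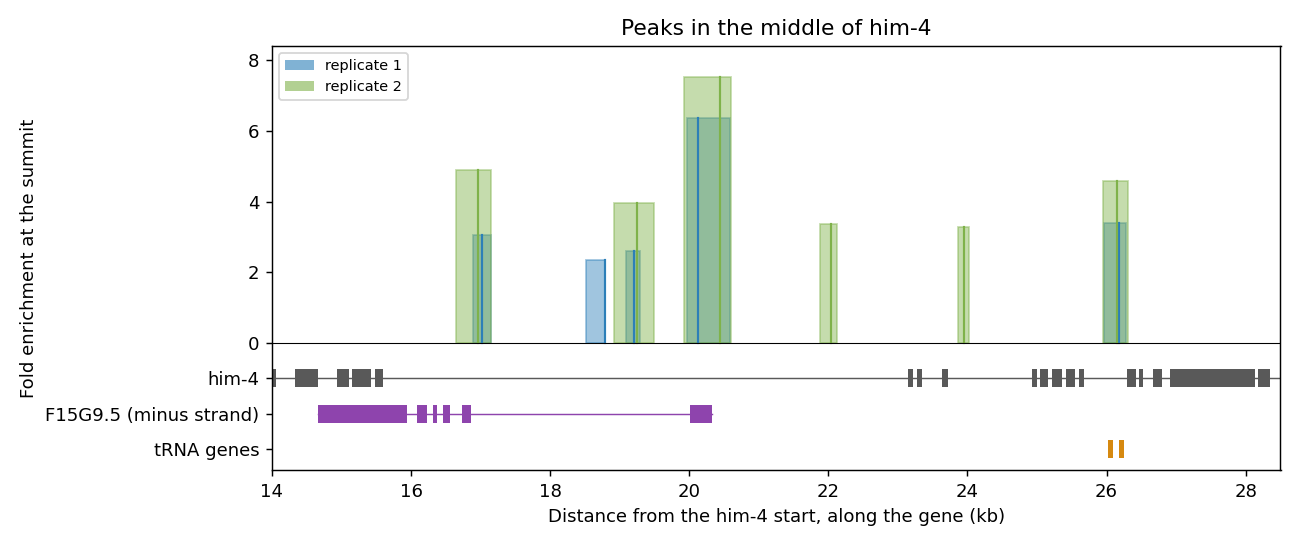
Peaks in the middle of *him-4*, at their distance from the *him-4* start (kb), with the fold enrichment at the summit as height, the summit as a vertical line, and the exons of *him-4* and *F15G9.5* and the tRNA genes below. The highest pair of peaks (6.36 and 7.51) overlies the start of *F15G9.5* in intron 31.

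Both replicates put the region at the start of *F15G9.5* first among the 6 regions. The *him-4* region at 9736488 was last in both (2.61 and 3.97), and the order in between differed. After the first, replicate 1 put *unc-52* (3.66) next, while replicate 2 put the *him-4* region at 9734217 (4.89) next. Every region was higher in replicate 2, as were 67.4% of all shared regions, and the differences ran from 0.15 to 0.68 on the log2 scale, all inside the 95% range. The order of the 5 weaker regions thus changed between the lists, and it was not tested further. Their lower fold enrichments ran from 2.61 to 3.66, under the median of 3.69 over all shared regions. The median of the 6 was 3.40.

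**Figure D3:**
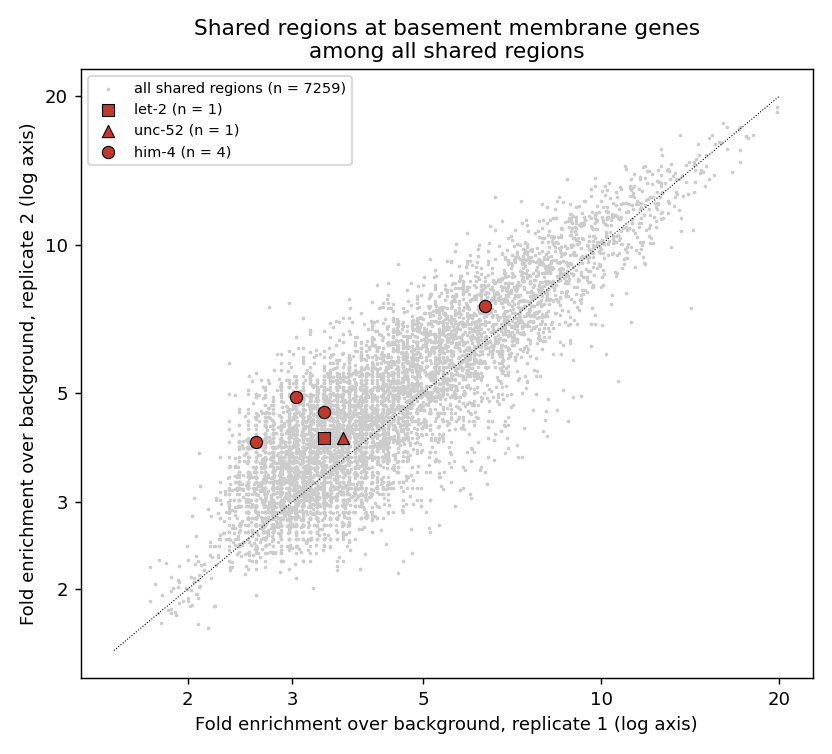
Fold enrichment in replicate 1 (horizontal, log axis) and replicate 2 (vertical, log axis) of the 6 shared regions at *let-2*, *unc-52* and *him-4* in red, over all 7259 shared regions in grey, with the line of equality dotted. The 6 lie above the line, and 5 of them sit in the lower part of the cloud.

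Long genes meet more peaks, and the genes of the basement membrane are long, with a median span of 14.6 kb against 7.03 kb for all protein-coding genes. Of the 5 genes with spans from 10 to 15 kb, 1 had a shared region, where 50.3% of all protein-coding genes in this class did. Below 10 kb, where none of the 10 falls, the share was 30.6%. None of the 3 with 15 to 20 kb had one (background 56.2%), and both of those over 20 kb, *unc-52* and *him-4*, did (70.3%). By chromosome, 2 of the 3 genes on X and 1 of the 7 on autosomes had a shared region, beside 44.7% and 32.7% of protein-coding genes. Within classes of both length and chromosome, *let-2* was 1 of 2 genes on X with 10 to 15 kb (60.0% of all), *him-4* the only one on X over 20 kb (87.3%), and the autosomal genes gave 0 of 3 both from 10 to 15 kb (48.0%) and from 15 to 20 kb (54.4%). Per 10 kb of span, the 10 genes had 0.307 shared regions and, without *him-4*, 0.130. Protein-coding genes had 0.721 on average (0.971 on X and 0.678 on autosomes), counting a region once for each gene it touches. The 5000 bp upstream makes up less of a long span than of a short one, and the densities are not matched for length. All these counts are of genes chosen by name, and no p-value is attached to them.

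The words searched for were AGATGAG and ACAAGATA, known in mammals as sites of EVI1 (of its C-terminal and its N-terminal finger cluster), the AP-1 site TGACTCA, and TTACTCATCTT, the FOS-responsive element upstream of *egl-43* that the study deleted. All were read on both strands, and the reverse complement of the last contains AGATGAG. None occurred whole within 50 bp of the stronger summit of any of the 6 shared regions. The same windows of all 7259 shared regions held them in 4.26%, 0.276%, 3.43% and 0.0276% of cases. Over whole regions, AGATGAG was found in 2 of the 6, at *let-2* and in the *him-4* region at 9736488, beside 11.5% of all shared regions. The AP-1 site was found in 2 of the 6, at *let-2* and *unc-52*, beside 9.26%. At *unc-52* its centre was 37 bp from the replicate 1 summit and 49 bp from that of replicate 2.

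At *let-2*, both words overlapped, 53 to 68 bp from the summits. The 11 bases there were then compared with the FOS-responsive element, a comparison chosen after the match had been seen.
FOS-responsive element: TTACTCATCTT
let-2 (chrX:16392343-16392353, plus strand): TGACTCATCTT
him-4 (chrX:9737004-9737014, plus strand): TCACTCATCTT
Counted from 1 at the 5′ end of the element, *let-2* had the substitution T2G and the *him-4* region at 9736488 had T2C, and the rest was identical. A match with at most 1 mismatch was present in 179 of the 7259 shared regions (2.47%). A match describes the letters only, and the *him-4* match lay in a region among the weakest 10% of the shared ones by rank (92.4%). The *let-2* match lay inside the peaks of both replicates. The *him-4* match lay in the replicate 2 peak only, beyond the end of the replicate 1 peak at 9736853. The AGATGAG in the *him-4* match was at least 195 bp from the summit of either replicate.

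Other genes of the basement membrane, its receptors and the enzymes that modify collagen were listed by function to set the 10 components in context. Shared regions were found at all 6 receptor genes (*pat-2*, *pat-3*, *ina-1*, *dgn-1*, *ddr-2* and *ptp-3*, which encode integrins, dystroglycan, a discoidin domain receptor and a receptor phosphatase), with 30 regions or 2.99 per 10 kb of span. Of 10 further matrix and proteoglycan genes, 6 had one (15 regions, 1.07 per 10 kb), and of 4 collagen-modifying enzymes, 3 had one (6 regions, 1.54 per 10 kb). The background for these counts is again 34.4% of protein-coding genes, and 50.3% of those with spans from 10 to 15 kb. The median spans of the groups were 12.4, 12.3 and 9.99 kb. These are shorter than the 14.6 kb of the 10 components but longer than the 7.03 kb of all protein-coding genes.

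The highest values among them exceeded those of every structural gene. At *pdi-2*, whose product is a subunit of the prolyl hydroxylase that modifies collagen, a region with its summit 10 bp upstream of the start reached 14.3 in replicate 1 and 14.5 in replicate 2 and ranked 24 of 7259. *sdn-1* (syndecan) followed with 7.66 and 7.84, at a summit 4400 bp upstream, and *lon-2* (glypican) with 7.40 and 9.62 in intron 9. The first 2 of these regions had nearly the same value in both replicates. Unlike for the 10 genes, the gene with the closest start is not given for them. The gene of the precipitated protein, *egl-43*, had 10 shared regions in a span of 12.8 kb, which is about as long as those of *emb-9*, *lam-2* and *nid-1* with none. Whether receptors and structural genes differ in binding was not tested, since the lists were chosen by name with earlier results known.

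**Figure D4:**
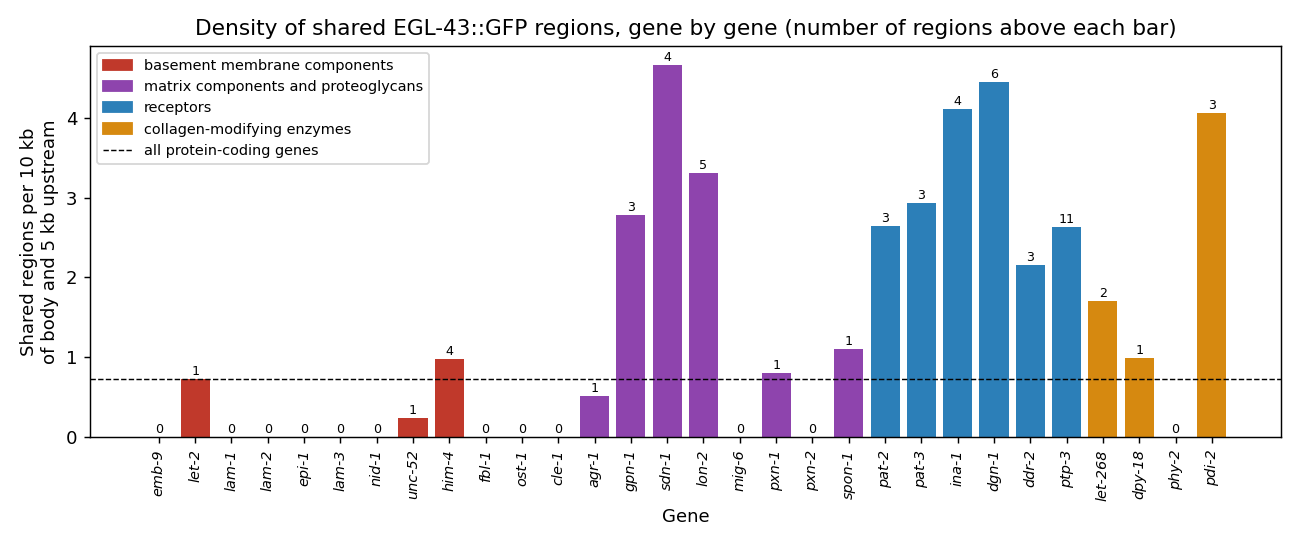
Shared regions per 10 kb of gene body and 5 kb upstream for each gene, coloured by group, with the number of regions above each bar and the average over all protein-coding genes (0.721) as a dashed line. Of the 10 components, *let-2* and *him-4*, both on X where the average is 0.971, reach the line, and 7 are at 0, while all 6 receptor genes lie above it.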

How the data were processed

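The deposited files are narrowPeak lists, 1 for each replicate. According to their supplementary methods, the authors used BWA 0.7.7 for alignment to ce11 (WBcel235), SAMtools 0.1.19 for conversion to BAM, and MACS2, run per replicate with an FDR limit of 0.05, for peaks (its version: not given in the sources used here). The deposited columns are a fold enrichment (a ratio to the background that the authors' MACS2 run estimated), −log10 values of p and q (the p-value and q-value), a score derived from the q-value that was not used, and the distance in bp from peak start to summit, an offset on no other scale. The highest q-values in the deposited lists were 0.00395 and 0.00688, below that limit, and the reason is not given in the sources used here. The lists precede the authors' later splitting and filtering steps, which discarded blacklisted regions. No blacklist was applied here. They give no read totals, so precision was judged from the 2 replicates only.

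Positions are counted from 1. The last peak of each chromosome ended exactly at the final base of that chromosome in WBcel235. Peaks overlapping by at least 1 bp were merged, and within a region each replicate was represented by its strongest peak. Ranks rest on whichever replicate was lower. Gene models are from Ensembl release 115, and sequences are from RefSeq. Named genes are the 10 members, *egl-43*, genes whose start was closest to the strongest summit of a member region, and the 3 related genes with the highest values. Other genes at a region were named after their positions were seen. Members and lists were chosen with earlier results of these data known. Merging and assignment were checked on simulated data. Python 3.11.15, numpy 2.4.6, scipy 1.17.1 and matplotlib 3.10.9 were used.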

Additional observations from a re-analysis of the deposited data

How the results depend on the processing

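No paired analysis was possible because there was 1 group. The number of genes with a shared region stayed at 3 with a reciprocal overlap of 50%, summits within 100 bp, a q-value of at most 1e-05 or the summit in the span, and was 2 with 500 or 2000 bp upstream (*let-2* lost) and with the closest protein-coding start only (*him-4* lost). Under that last rule 2 regions were left of 6. Taking every peak of 1 list gave 4 to 5 genes and 8 to 12 regions (without replicate 1, *lam-1* and *lam-2* were added, *unc-52* had 2 and *him-4* 7, and without replicate 2, *lam-3* was added). With summits within 100 bp, the highest lower fold enrichment at *him-4* was 3.40. The share of protein-coding genes with a shared region was 33.2% under reciprocal overlap and under the 100 bp limit, 32.8% at q of at most 1e-05, 18.3% and 25.2% with 500 and 2000 bp upstream, 33.5% by summit, 19.8% by closest start, and 36.6 to 43.1% with 1 replicate. The median fold enrichment stayed within 1 SD of the replicate differences. Of 114 values per gene, 9 moved. This count says little about stability. Apart from the use of 1 list, the rules only narrowed the main one, so genes without a shared region could gain none. Where a gene lost its regions, its fold enrichment was not compared. No control library was used here, so enrichment common to any precipitation was not measured, and depth is unknown.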
